A study of Mus musculus with 60 samples.

Results

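The Notch receptors and their ligands were followed on a custom Affymetrix array of mouse glycan-related genes. The set held 10 genes: the receptors Notch1, Notch2, Notch3 and Notch4, the ligands Dll1, Dll3, Dll4, Jag1 and Jag2, and the target gene Hes5. They were found by matching the RefSeq transcript in each probe set's name to these symbols. All 10 were present with 1 probe set each, among 909 genes with a symbol on the array. The probe sets of Notch2 and Notch4 carry the suffix that Affymetrix gives to probes shared with other transcripts, so their signal may not come from these genes alone.

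Notch receptors are single-pass membrane proteins whose extracellular part is a long row of EGF-like repeats. These repeats carry O-fucose, added by POFUT1 and extended by the Fringe enzymes, and O-glucose glycans, and the glycans tune which ligands a receptor answers to. Ligands of the Delta-like and Jagged families on a neighbouring cell trigger cleavage by gamma-secretase, after which the intracellular part joins the DNA-binding protein RBPJ and turns on genes such as the Hes repressors.

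Total RNA of 8 tissues from 18 mice was hybridised to 60 arrays. The first line held mice labelled St6galnac2 KO, which lack a sialyltransferase that acts on O-glycans, and their wild-type (WT) counterparts. Each genotype had 2 males and 1 female, and thyroid, lymph node, brain and intestine were taken from 3 KO and 3 WT mice, except that intestine had 2 KO mice. The second line held double-knockout mice labelled DKO, without the GalNAc transferases B4galnt1 and B4galnt2, and their WT counterparts. There, thymus had 5 DKO and 3 WT mice, testes 3 and 3, mammary gland 5 and 2, and kidney 5 and 4. The DKO mice were 3 males and 2 females and the WT mice 3 males and 1 female, so that mammary gland also came mostly from males and the WT thymus samples were all male. The third group held 3 C57 WT mice, with brain and intestine only, whose sex field reads unknown. WT brain of the first line had 4 arrays, as mouse 9099 was hybridised to 2 arrays, which were averaged. The labels used here give neither the age of the mice nor how the alleles were made, and p-values measure the spread between these mice.

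Values are log2 expression values. Array medians lay between 5.30 and 5.76, the median of all values was 5.49, and the number of mice per group limits the precision. The targeted genes were not lower by any called difference in the labelled knockouts. St6galnac2 was between 5.79 and 6.27 in KO thyroid and between 5.49 and 5.94 in WT thyroid, and none of its 4 tissue differences was called. B4galnt1 was between 5.30 and 6.04 in DKO kidney and between 5.47 and 5.93 in WT kidney, and neither B4galnt gene was called in any tissue. B4galnt1 in thymus was between 4.73 and 5.23 in DKO mice and between 5.45 and 8.72 in WT mice, without overlap (limma, adjusted p 0.24), where 2 of the 3 WT arrays are among those that stand apart. Where the probes lie relative to the deleted parts is not given in the sources used here, so genotypes below are those of the labels.

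A total of 4 arrays, all WT, stood apart from their labelled tissue. The first brain array of mouse 9099 correlated at -0.27 with the other brain arrays and at 0.96 with intestine. The intestine array of the same mouse correlated at -0.27 with intestine and at 0.95 with brain. The thymus arrays of mice N3740 and N3738 correlated at 0.04 and 0.06 with the other thymus arrays, against at least 0.51 for each of the other 56 arrays with its own tissue. Comparisons of tissues and of lines leave these 4 out. Knockout comparisons keep all arrays as labelled, with the value without the 4 beside them.

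Marker genes of the labelled tissues were then read. All 6 measured brain markers were high in brain, such as Bcan (mean 9.87), although Fut9 and Ugt8a were also high in kidney (10.6 and 8.17). Of 5 intestine markers 4 were high in intestine, such as Lgals4 (13.6), while Fut2 was at 4.56 there and within the range of the other tissue means. Umod, the 1 measured kidney marker, was at 12.3 in kidney, and lymph node had high Cd22 (10.4) and Ccl21a (12.3). Arrays labelled thymus did not show T lineage markers: Ccr9 averaged 3.86, Ccr7 4.60 and Il7r 3.73 there, near or below the first quartile of all values (4.21), against 7.16, 9.13 and 7.79 in lymph node. Of 5 endothelial genes, Emcn (11.2), Pecam1 (10.4) and Icam2 (9.20) were high in thymus and Sele (3.11) and Selp (4.65) were low, and connective tissue genes such as Dcn (12.6) and Bgn (11.2) were high.

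Other labels had 1 or 2 measured markers or none. For testes these were Galnt3 (4.53) and B4galnt3 (5.20), both with their highest mean there. In thyroid Chga was at 5.77, 7.79 and 12.8 in KO mice and 12.7, 13.1 and 13.0 in WT mice. It was also high in other tissues of that line, without the arrays that stand apart. There it lay between 10.2 and 10.5 in brain and between 8.75 and 9.14 in intestine. None of the mammary gland list was measured. The salivary gland gene Prol1 was at 12.5 and 9.79 in DKO mammary glands of N5895 and N5892 and between 2.52 and 2.61 in the other 3, against 9.74 in both WT mammary glands. It was also at 11.1 and 5.12 in WT lymph nodes of mice 9362 and 9094, and at 6.95 in KO thyroid of mouse 9093. In thymus it was at 13.4 and 13.5 in WT mice N3740 and N3738, against at most 2.61 in the other thymus arrays. What part these markers have in the values below was not tested.

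The first question was where each gene is expressed. Each tissue was set against the mean of the other 7 with limma, and a gene was called at a Benjamini-Hochberg adjusted p under 0.05 over all 1246 probe sets and a log2 difference of at least 1. Of 80 comparisons of a gene in a tissue, 17 were called, 8 higher and 9 lower. That is 21.2% of them, against 18.7% over all probe sets, so the family was called about as often as the array as a whole. 7 of the 10 genes were called somewhere, and Notch3, Dll4 and Hes5 were not. In these comparisons each tissue came from 1 line, so a difference from tissues of the other line also holds the difference between lines. In whole tissues, more cells of an expressing type and more RNA per cell cannot be told apart either.

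**Figure D1:**
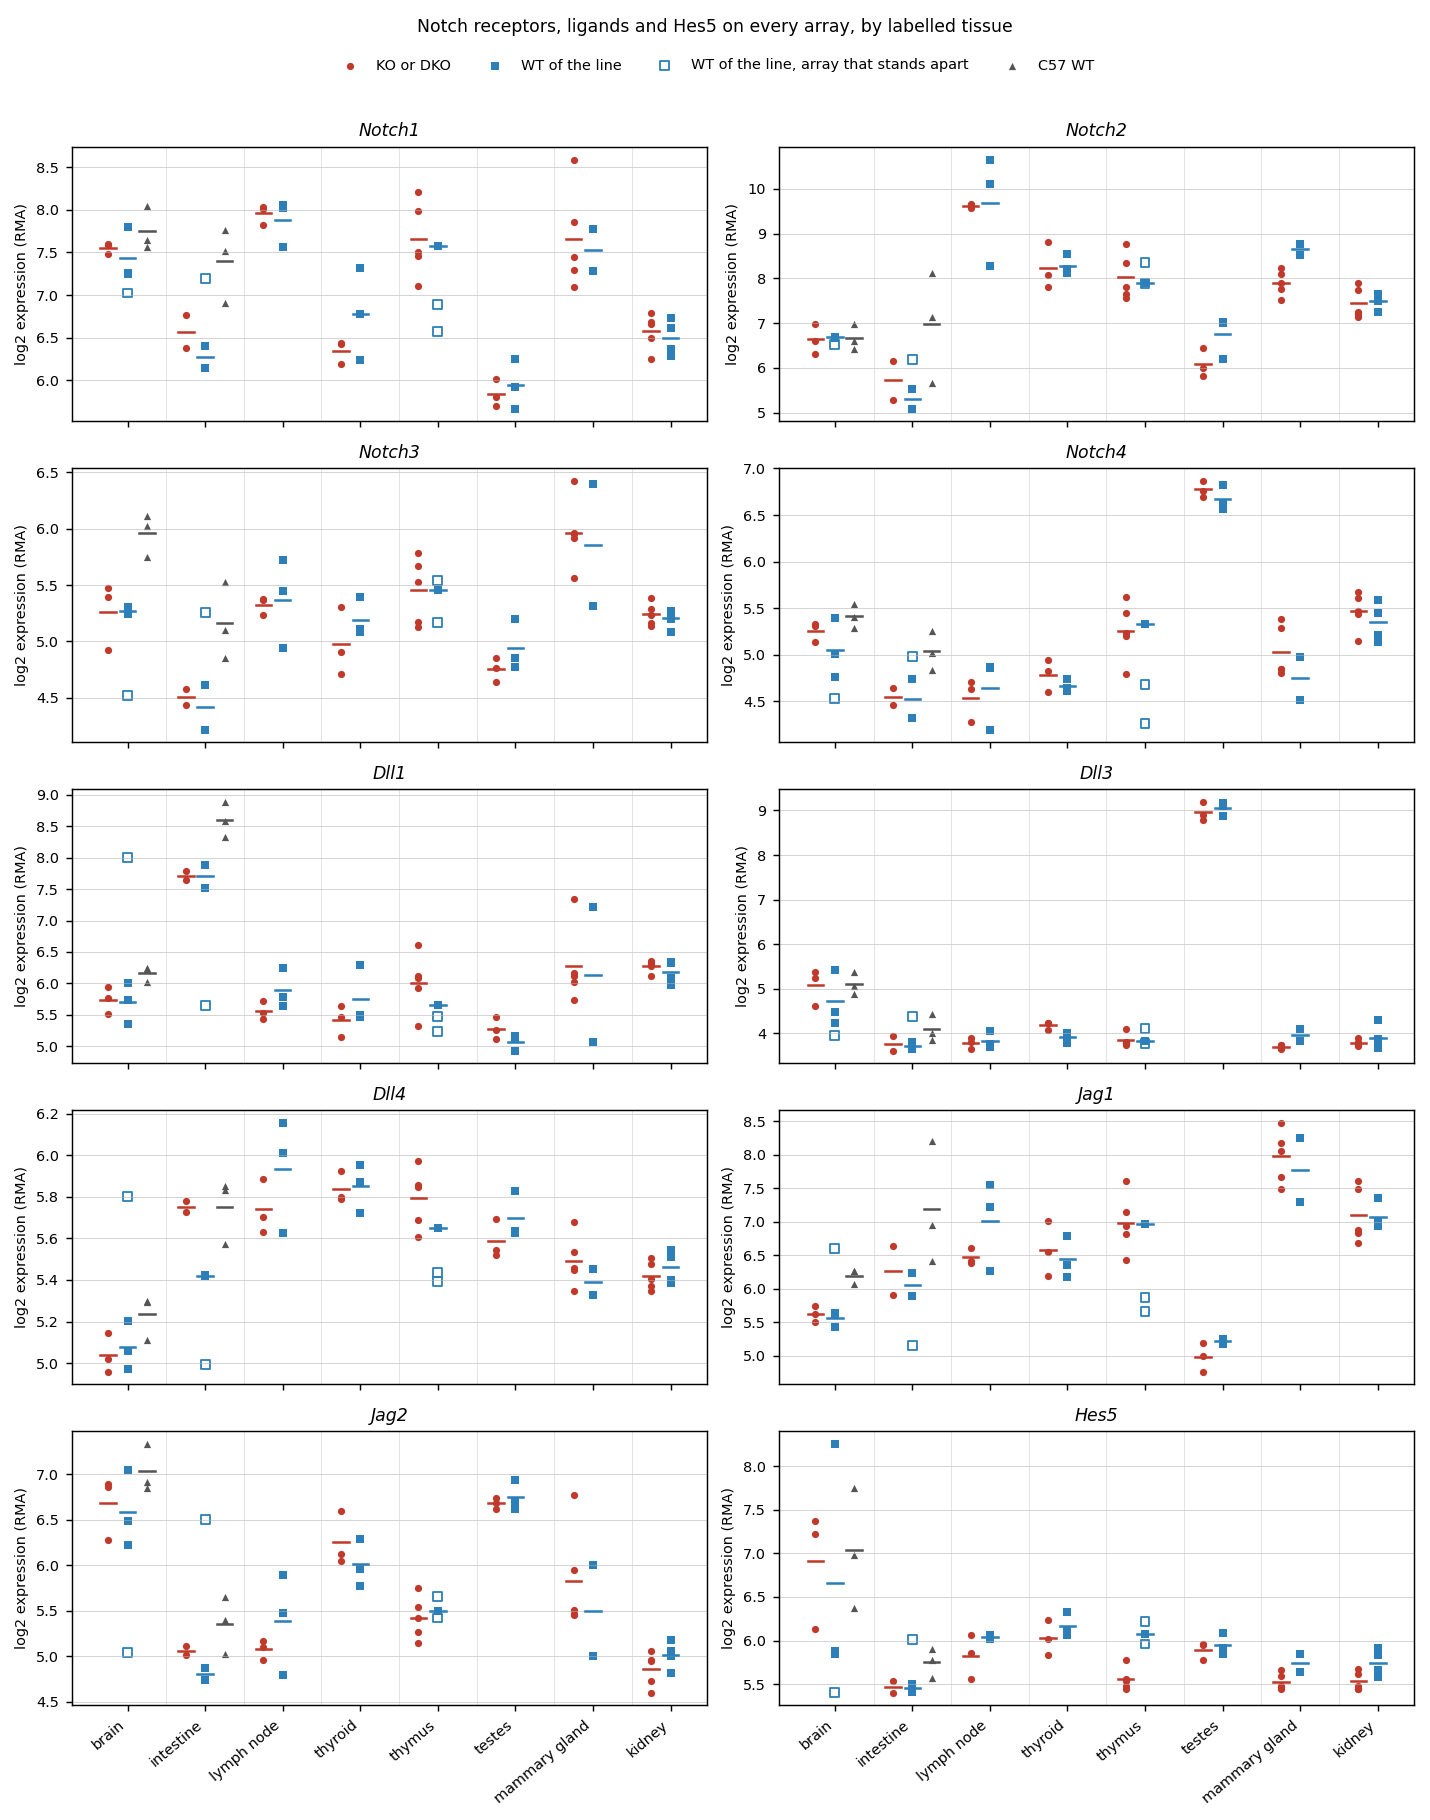
Log2 expression (RMA) of the 10 genes on every array, by labelled tissue, with KO or DKO mice left of WT mice of the same line and C57 mice last; open squares are the 4 arrays that stand apart, and bars are means without them. Dll3 in testes lies between 8.78 and 9.19, above every other tissue, while Dll4 tissue means span 0.79.

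Among the receptors, Notch1 and Notch2 were both called higher in lymph node and lower in testes. Notch1 is the broadly used receptor that directs T cell fate among other choices. It was between 7.57 and 8.06 in lymph node, with a median of 8.02, and between 5.67 and 6.25 in testes, with a median of 5.86. The difference from the mean of the other tissues was 1.06 ± 0.16 (SE) in lymph node and -1.29 ± 0.15 in testes (limma, adjusted p 1.24e-07 and 3.15e-10). The other tissues lay between these, in the order thymus, mammary gland, brain, thyroid, kidney and intestine, and no neighbours in the order had separate ranges. Brain (7.24 to 7.79) and kidney (6.25 to 6.79), which are not neighbours, did not overlap.

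Notch2, a receptor needed for marginal zone B cells and for kidney and bile duct development, spanned 4.14 between its highest and lowest tissue mean. The median over the 909 genes was 1.96. Lymph node values were 9.65, 9.56 and 9.66 in KO mice and 10.65, 10.12 and 8.27 in WT mice. The KO values lay within the WT range, and 5 of the 6 mice lay above every mouse of every other tissue in these lines. Intestine values without the array that stands apart were 6.16 and 5.28 in KO mice and 5.09 and 5.52 in WT mice. The difference was 2.31 ± 0.21 in lymph node, a 4.96-fold higher level, and -2.42 ± 0.24 in intestine, a 5.37-fold lower one (limma, adjusted p 4.84e-13 and 1.06e-11). Notch2 was also lower in brain, at -1.11 ± 0.21, and in testes, at -1.17 ± 0.20. Lymph node, thyroid, mammary gland, thymus and kidney were each above all brain, testes and intestine mice.

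Notch3, the receptor of vascular smooth muscle and pericytes, had no call in any tissue. Its highest tissue was mammary gland, between 5.32 and 6.42 with a median of 5.96, and its lowest was intestine, between 4.22 and 4.62. Intestine did not overlap any other tissue, at a difference of -0.83 that is under the size minimum of 1. Notch4, a receptor known mainly from endothelium, was highest in testes. There it was 6.87, 6.76 and 6.69 in DKO mice and 6.56, 6.62 and 6.82 in WT mice, while the next tissue, kidney, reached 5.67. Testes were 1.77 ± 0.11 above the other tissues, or 3.40-fold (limma, adjusted p 3.44e-19). Of 5 endothelial genes, Pecam1 (5.47), Emcn (5.23) and Icam2 (5.72) had their lowest tissue mean in testes, while Sele (3.62) had its highest and Selp (4.77) its second highest there. Whether the shared probes of Notch4 read another transcript in testes was not tested.

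Among the Delta-like ligands, Dll3 had the widest tissue spread of the 10 genes, at 5.26. DLL3 is a divergent ligand that acts inside the expressing cell and inhibits rather than activates Notch, and is known for somite formation. In testes it was 8.90, 8.78 and 9.19 in DKO mice and 8.87, 9.10 and 9.17 in WT mice. In brain it was 5.23, 5.38 and 4.61 in KO mice and 4.48, 4.23 and 5.43 in WT mice, and in the other 6 tissues of the 2 lines it lay between 3.60 and 4.30. Testes were 5.09 ± 0.11 above the other tissues (limma, adjusted p 7.29e-37) and 5.17 ± 0.11 above the other 3 tissues of their line. No fold is given, since Dll3 means in 6 of the other 7 tissues lay below the first quartile of all values. Intestine (-1.09 ± 0.13) and lymph node (-1.02 ± 0.11) were called lower, but the mean they were set against includes testes. Against the other 3 tissues of their own line the differences were -0.50 and -0.43, under the size minimum. The lymph node call was also lost without 9361, N3738 or N3740 (-0.94 to -0.99).

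Dll1, the activating ligand that maintains stem and secretory cell balance in the gut, was highest in intestine. It was 7.78 and 7.64 in KO mice and 7.51 and 7.89 in WT mice, and the other tissues of both lines reached 7.34, in 1 mammary gland. Intestine was 2.01 ± 0.22 above the other tissues, or 4.03-fold, and testes had a difference of -1.07 ± 0.18 (limma, adjusted p 6.22e-11 and 9.31e-07). The mean that testes were set against includes intestine, a tissue of the other line with a mean of 7.70. Testes averaged 5.175, and the tissues other than intestine had means between 5.59 and 6.24. The arrays that stand apart followed their whole profile here: the first brain array of mouse 9099 lay above the intestine mice of the line, and its intestine array, at 5.65, lay within the brain range of 5.36 to 6.01. Mammary gland spread widest within a tissue, with 7.34 in DKO mouse N5891 and 5.74 to 6.17 in the other DKO mice, against 7.21 in WT female N9686 and 5.07 in WT male N3738.

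Dll4, a ligand of sprouting vessels and of the thymic epithelium, had the narrowest spread. Its tissue means ran between 5.06 in brain and 5.85 in thyroid. Brain, between 4.96 and 5.21, lay below every mouse of the other tissues, at a difference of -0.59 that is under the size minimum.

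The 2 tissues lowest for Jag1, testes and brain, were the 2 highest for Jag2. Jag1, the ligand whose loss affects bile ducts, heart and vessels, was highest in mammary gland. It was 7.50, 8.18, 8.06, 7.68 and 8.48 in DKO mice and 7.30 and 8.25 in WT mice. Testes were at the other end, with 5.19, 4.76 and 4.99 in DKO mice and 5.25, 5.17 and 5.23 in WT mice. The differences were 1.59 ± 0.16 in mammary gland, -1.63 ± 0.16 in testes and -1.03 ± 0.17 in brain (limma, adjusted p 4.25e-11, 4.86e-12 and 7.07e-07). The 6 tissues above brain, brain and testes had separate ranges. Jag2, a ligand of limb, palate and gamma-delta T cell development, was highest in testes and brain, which overlapped. Testes lay between 6.62 and 6.94 with a median of 6.69, and brain between 6.22 and 7.05 with a median of 6.67. Testes were 1.16 ± 0.15 and brain 1.03 ± 0.16 above the other tissues (adjusted p 4.08e-09 and 1.36e-07). The 2 brain calls of Jag1 and Jag2 sat close to the size minimum, at 0.87 for Jag2 and -0.82 for Jag1 with all arrays as labelled. The Jag2 call was lost without 9093, 9094, 9361 or N3738 (0.91 to 0.99), and the Jag1 call without 9361, 9362 or N9686 (-0.99).

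**Figure D2:**
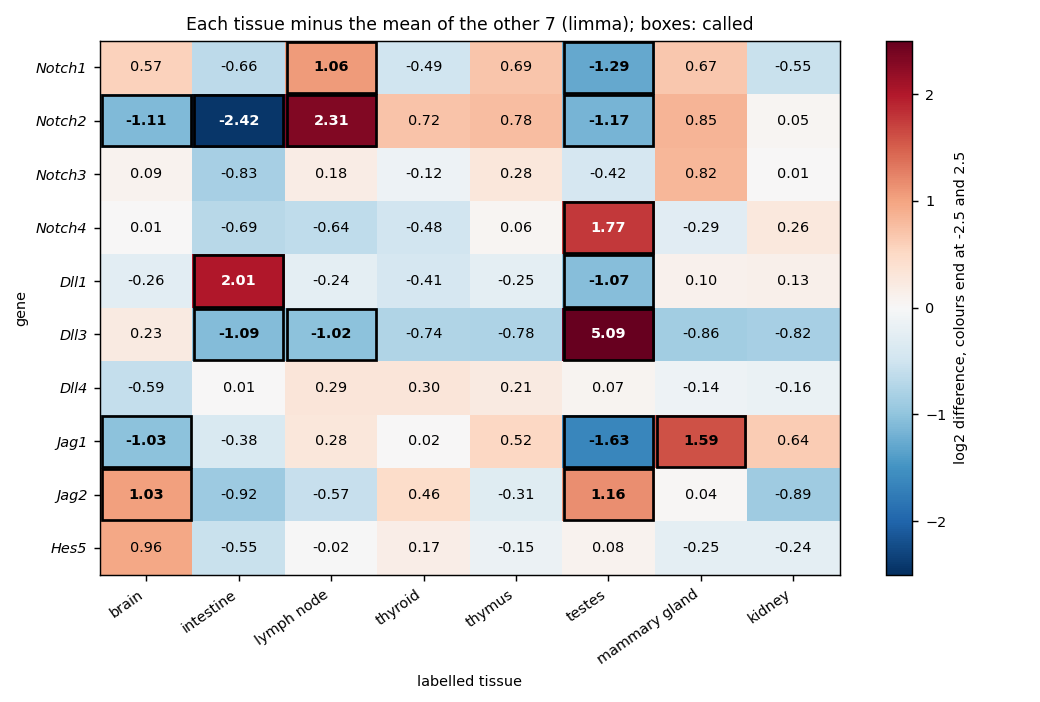
Log2 difference of each tissue (columns) from the mean of the other 7 tissues for each gene (rows), with colours ending at -2.5 and 2.5 and black boxes around the 17 calls. Testes hold 7 of the boxes and thyroid, thymus and kidney none, and the largest value is Dll3 in testes at 5.09.

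Read by tissue, testes held 3 of the 10 genes as higher and 4 as lower, where 8.43% and 16.3% of all probe sets were called higher and lower. Brain had 1 higher and 2 lower (14.3% and 15.1% of all probe sets). Intestine had 1 higher and 2 lower (11.2% and 14% of all). Lymph node had 2 higher and 1 lower (10.7% and 7.22% of all), and mammary gland 1 higher and 0 lower (9.07% and 2.57% of all). Thyroid (5.86% and 6.18% of all), thymus (8.19% and 4.01%) and kidney (9.07% and 7.14%) had 0 in either direction by limma, although 7, 6 and 6 of the 10 genes had an unadjusted p under 0.05 there, as had 60%, 52.1% and 63.6% of all probe sets.

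Hes5, a direct Notch target and a repressor that holds neural progenitors back from differentiating, had its highest tissue mean in brain but varied most between mice there. It was 7.37, 7.22 and 6.13 in KO brains and 8.26, 5.88 and 5.85 in WT brains, taking the second array of mouse 9099. The 2 genotypes overlapped, and 3 brains lay at 7.22 or above while the other 3 lay at 6.13 or below. Brain was 0.96 above the other tissues, just under the size minimum. Leaving out 1 mouse moved this between 0.60, without 9094, and 1.19, without 9099, and Hes5 was called without 9099, 9100 or 9362. Dll3 and Jag2 were high in the same brains: WT mouse 9094 had 5.43 and 7.05, KO mouse 9093 had 5.23 and 6.90, and KO mouse 9361 had 5.38 and 6.86, against at most 4.61 for Dll3 and 6.48 for Jag2 in the other 3 brains. The mean of 6 brain markers lay between 8.98 and 9.40 in KO brains and between 8.92 and 9.27 in WT brains. These ranges are by genotype, and the part of the markers in the split between the 3 high and 3 low brains was not tested. In the C57 brains Hes5 was 7.75, 6.37 and 6.98.

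The window around the Hes5 start in RefSeq's promoter table is shown because it is the 1 window among these genes that holds the core RBPJ motif, GTGGGAA, searched on both strands. The window, from RefSeq on GRCm38.p6, is chr4:154960673-154960972 on the plus strand. It runs over 250 bases before and 50 bases after the transcript start in the promoter table. The RefSeq gene record that lists the array's transcript begins upstream of the whole window, so by that gene record both matches lie inside the gene. Where they lie relative to the start of the array's own transcript was not examined. All 10 genes have at least 1 window, 11 in all, and 6.38% of the 32851 windows in the table hold the motif. Capitals mark the 2 matches, which do not overlap each other.
Hes5: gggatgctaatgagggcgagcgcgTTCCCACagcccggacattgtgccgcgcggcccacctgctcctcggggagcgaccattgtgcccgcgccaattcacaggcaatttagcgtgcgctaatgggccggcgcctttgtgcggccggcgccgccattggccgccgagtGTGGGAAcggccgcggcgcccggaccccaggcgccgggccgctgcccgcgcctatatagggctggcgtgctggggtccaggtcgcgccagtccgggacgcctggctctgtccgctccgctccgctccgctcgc
The first match, TTCCCAC, is the motif on the opposite strand, 226 to 220 bases before the table's start, and the second lies on the gene's strand, 83 to 77 bases before it. A match is a string of letters, and binding was not measured.

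The pattern of each gene over the 56 arrays was then compared with every other gene on the array by Pearson's r, which is a description over arrays that share tissues and mice. Dll3 was most like Ndst4 (0.98) and Wnt6 (0.97), and Notch4 most like Dll3 (0.83) and Pomt1 (0.82). Hes5 was most like Hs3st2 (0.90) and Slc35d3 (0.89), and Jag2 most like Ccl27a (0.89) and Il17d (0.87). Notch1 was most like St8sia4 (0.85) and Psen2 (0.79), and Dll1 like Pgm2 (0.85) and Fzd5 (0.84). The closest genes were Cmah (0.80) and Ccl12 (0.80) for Notch2, Fst (0.83) and Tgfbr2 (0.82) for Jag1, Hyal1 (0.72) and Chsy1 (0.71) for Notch3, and B4galt1 (0.70) and Il9r (0.66) for Dll4. Among the 10 themselves, Notch1 and Notch3 (0.66) and Jag2 and Hes5 (0.65) followed Notch4 and Dll3, and Dll3 and Jag1 were the most opposed pair (-0.69).

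Of 48 other genes of the pathway, 15 were measured: 5 glycan-modifying enzymes, 4 genes of GDP-fucose supply, 4 of processing and signalling and the targets Hes1 and Hes7. Among the enzymes, the Fringes, which extend O-fucose with GlcNAc, differed between tissues. Lfng averaged 7.05 in brain and 7.36 in lymph node, against 5.02 in testes, and was called higher in the first pair (1.21 ± 0.18 and 1.55 ± 0.18) and lower in testes (-1.06 ± 0.17). Mfng was higher in lymph node (1.85 ± 0.13) and mammary gland (1.35 ± 0.13), and Rfng in brain (1.35 ± 0.09). B4galt1, which adds galactose to the Fringe product, was lower in brain, at -2.60 ± 0.12 and a mean of 6.79. Pofut1 had no call, with tissue means between 6.61 and 7.48. In intestine, the GDP-fucose genes Gmds (2.93 ± 0.29), Slc35c1 (2.61 ± 0.21) and Gfus (1.21 ± 0.17) were called higher, 3 of the 4 measured, where 11.2% of all probe sets were, and Gfus was also higher in testes (1.55 ± 0.14). Of processing and signalling genes, the gamma-secretase subunit Psen2 was higher in lymph node (1.56 ± 0.13) and lower in intestine (-1.07 ± 0.16) and testes (-1.02 ± 0.13). Ncstn, another subunit, was higher in intestine (1.14 ± 0.13) and lower in thyroid (-1.07 ± 0.11), and Rbpj was higher in mammary gland (1.23 ± 0.14). The genes of supply, processing and signalling are named here after their values were seen. Hes1 and Hes7 had no call in any tissue. Calls over the 15 genes are given with the shares of all probe sets called higher and lower. Brain had 2 higher and 1 lower (14.3% and 15.1% of all), intestine 4 and 1 (11.2% and 14%). Lymph node had 3 and 0 (10.7% and 7.22%), thyroid 0 and 1 (5.86% and 6.18%). Testes had 1 and 2 (8.43% and 16.3%), mammary gland 2 and 0 (9.07% and 2.57%). Thymus (8.19% and 4.01%) and kidney (9.07% and 7.14%) had 0 and 0.

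The second question was whether the knockouts changed these genes. In each tissue, KO or DKO was set against WT of the same line with sex as a covariate (none in testes) and called at an adjusted p under 0.05. None of the 80 comparisons of a gene in a tissue was called by limma, and 4 (5%) had an unadjusted p under 0.05, against 8.11% of all such comparisons on the array. In the St6galnac2 line the share called over all probe sets was 0% in thyroid, lymph node, brain and intestine. The 10 genes ranged between -0.43 and 0.27 in thyroid, with a median of -0.03. In lymph node they ranged between -0.55 and 0.08, with 9 of 10 below 0 where 65.9% of all probe sets were. In brain they ranged between -0.34 and 0.41, and in intestine between -0.22 and 0.58. The smallest p values belonged to Notch1, Dll3 and Dll1 in thyroid (-0.43, 0.27 and -0.33) and to Dll1, Jag1 and Hes5 in lymph node (-0.33, -0.55 and -0.22), with adjusted p of 0.999 and 0.802.

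In lymph node Jag1 was 6.38, 6.61 and 6.42 in KO mice and 7.23, 6.27 and 7.55 in WT mice. The WT spread was wider and held all the KO values. The mean of 6 B cell and follicle markers lay between 10.16 and 10.72 in KO mice and between 8.29 and 10.54 in WT mice. It was lowest in WT mouse 9094, which had the highest Jag1 and the lowest Notch2. The 3 T lineage markers averaged 5.38 in 9094 and between 8.30 and 8.95 in the other lymph nodes. The 9094 array also had the lowest own-tissue correlation of all arrays kept, at 0.51, against at least 0.86 in the other lymph nodes. The salivary gland gene Prol1 was at 11.1 in WT mouse 9362 and at 5.12 in 9094, against 2.41 to 2.78 in the other lymph nodes. The part of these markers and of Prol1 in Jag1 and Notch2 was not tested. Without 9094 the difference was -0.23 in Jag1 and -0.77 in Notch2, against -0.06 for Notch2 with all mice. Leaving out 9093, the 1 female of the KO mice, gives the same values by design. The sex covariate then takes up the remaining female, and only the males are compared. In brain the smallest p values were those of Notch4 (0.24), Dll3 (0.41) and Jag2 (0.34), and in intestine those of Dll4 (0.45), Jag1 (0.49) and Dll1 (0.58), with adjusted p of 0.897 and 0.993. Without the arrays that stand apart, Jag2 in brain was 0.09, and in intestine Jag1 was 0.21 and Dll1 0.01. Averaged over the 4 tissues with the mouse as a random block, the 10 genes ranged between -0.11 and 0.13, and none was called (0.0803% of all probe sets were). The smallest p values belonged to Dll3 (0.13), Notch3 (-0.07) and Notch4 (0.05), each with an adjusted p of 0.979 by limma. The F test for a KO difference that varies between the 4 tissues called none of them (0% of all).

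**Figure D3:**
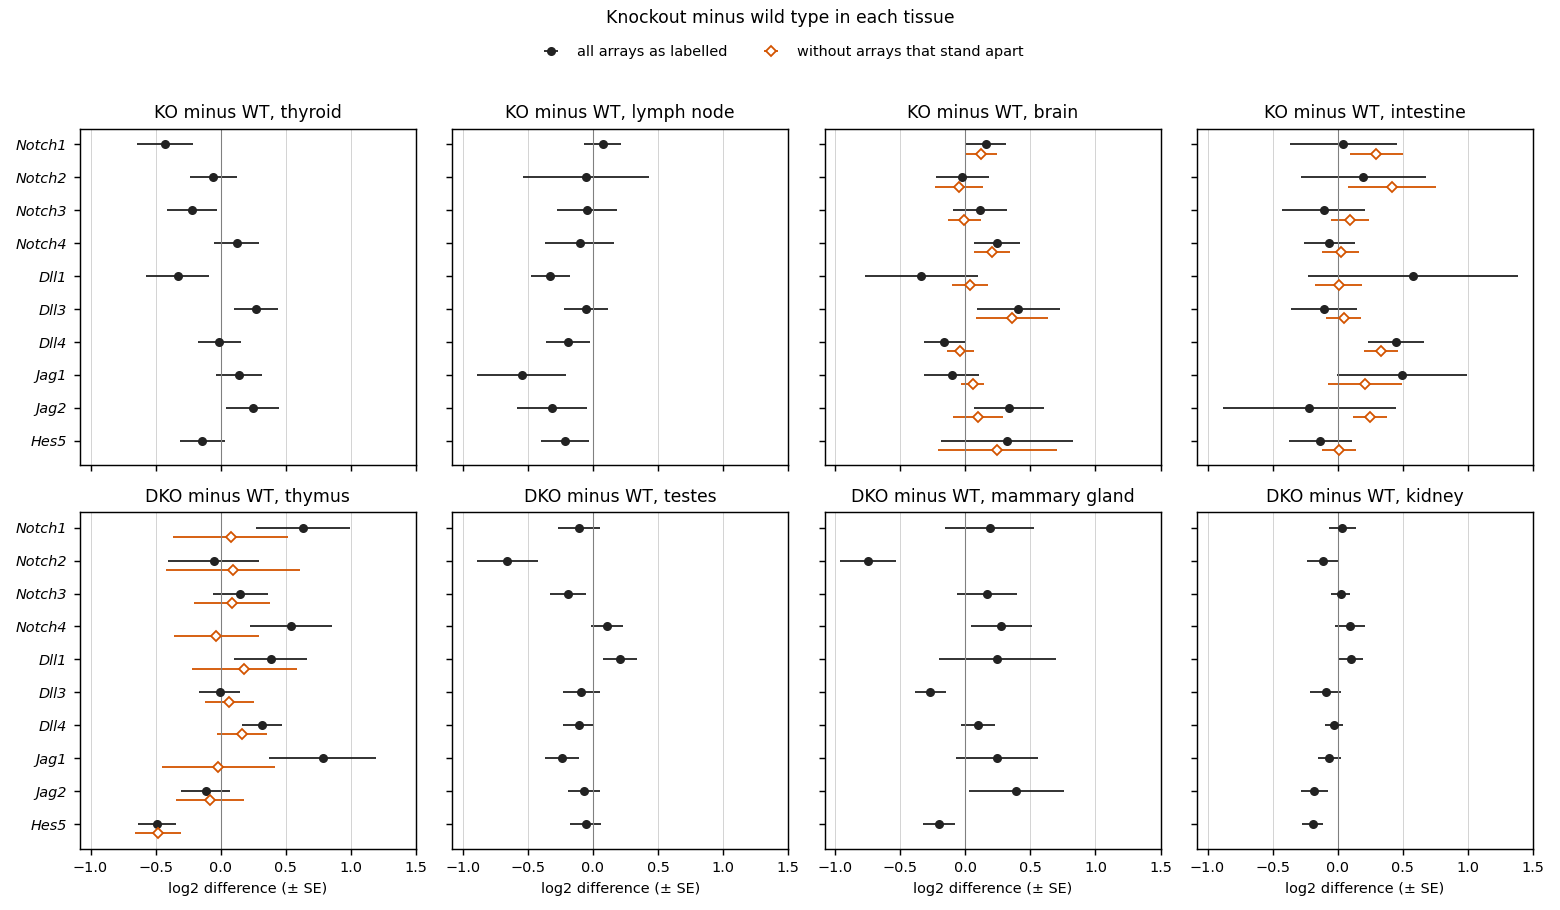
Log2 difference between KO or DKO and WT mice (points, with SE bars) of the 10 genes in each tissue, with the values without the arrays that stand apart as open diamonds in brain, intestine and thymus. Nothing in these panels was called, and Jag1 in thymus is 0.78 with all arrays and -0.02 without the 2 WT arrays that stand apart.

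In the DKO line the share of all probe sets called was 0% in thymus, 0.241% in testes, 0% in mammary gland and 0.0803% in kidney. The 10 genes ranged between -0.49 and 0.78 in thymus, with a median of 0.235 against -0.105 over all probe sets. In testes they ranged between -0.66 and 0.21 (medians -0.098 and -0.085). In mammary gland they ranged between -0.75 and 0.39 (medians 0.176 and -0.089), with 3 of 10 below 0 where 68.5% of all probe sets were. In kidney they ranged between -0.19 and 0.10 (medians -0.047 and -0.067). The 4 unadjusted p under 0.05 were those of Hes5 in thymus (-0.49 ± 0.14) and kidney (-0.19 ± 0.08) and of Notch2 in mammary gland (-0.75 ± 0.22) and testes (-0.66 ± 0.24), with adjusted p of 0.24, 0.337, 0.369 and 0.314. Hes5 in thymus was 5.56, 5.78, 5.45, 5.48 and 5.53 in DKO mice and 6.07, 5.96 and 6.22 in WT mice. The groups did not overlap, and the 1 WT array that does not stand apart had 6.07. Marker lists of other cell types were also read in thymus, and the DKO and WT ranges of the lists below overlapped. The mean of 5 endothelial markers lay between 7.64 and 7.80 in DKO mice and between 5.52 and 7.69 in WT mice. Connective tissue markers (6 genes) lay between 9.79 and 10.43 in DKO mice and between 8.15 and 9.94 in WT mice. B cell and follicle markers (6 genes) lay between 5.74 and 6.52 in DKO mice and between 6.49 and 7.18 in WT mice, and the 3 T lineage markers between 3.68 and 4.33 in DKO mice and between 4.31 and 4.68 in WT mice. In the WT array that does not stand apart, the B cell list was at 7.06, above the DKO range. The T lineage list was at 4.31 there, within the DKO range. Myeloid markers (4 genes) lay between 7.50 and 8.05 in DKO mice and at 7.99 in that WT array. In the 2 WT arrays that stand apart they were at 6.58 and 6.50. The part of these lists in Hes5 was not tested. Notch2 in mammary gland was 7.51, 8.09, 7.76, 7.89 and 8.22 in DKO mice and 8.78 and 8.53 in WT mice, without overlap. The B cell and follicle markers separated the same groups, at 4.98 to 5.27 in DKO mice and 5.41 to 5.71 in WT mice, and their part in Notch2 was not tested. In testes it was 6.45, 5.99 and 5.83 in DKO mice and 6.20, 7.01 and 7.03 in WT mice, where WT mouse N9700 lay within the DKO range. Without N9700 Notch2 was called in testes, at -0.93 (adjusted p 0.00435). In thymus, Hes5 (-0.49), Notch4 (0.83) and Jag1 (1.18) were called without N9700, which leaves only the WT arrays that stand apart.

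Averaged over the 4 tissues, Hes5 was lower in DKO mice and was the 1 of 10 genes called, where 2.17% of all probe sets were called lower. The difference was -0.235 ± 0.055, a 1.18-fold change, with an adjusted p of 0.0397 (limma, mouse as a random block). The median over all probe sets was itself -0.09, and 71.7% of them were below 0, against 3 of the 10 genes. In kidney Hes5 was 5.45, 5.67, 5.62, 5.44 and 5.48 in DKO mice and 5.58, 5.84, 5.91 and 5.66 in WT mice. In mammary gland it was between 5.44 and 5.66 in DKO mice, and 5.65 and 5.84 in WT mice. In testes it was 5.77, 5.95 and 5.96 in DKO mice and 5.85, 6.09 and 5.91 in WT mice. The groups overlapped in these 3 tissues. The call was lost without the arrays that stand apart (-0.24, adjusted p 0.0716), with each array centred on its median (-0.17, 0.114) and without any 1 mouse other than N9700 (adjusted p up to 0.148). Without N9700, Hes5 (-0.26), Notch2 (-0.49) and Notch4 (0.33) were called.

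The F test of unequal DKO differences called none of the 10 genes, where 2.89% of all probe sets were called, and the smallest adjusted p was 0.163, for Dll4. None of the 15 other pathway genes was called in any KO or DKO comparison.

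The third comparison set the St6galnac2 line, KO and WT together, against the C57 mice. Line, strain and batch cannot be told apart in it, and the sex of the C57 mice is not given. All 10 genes were below 0 in both tissues, as were 76% of all probe sets in brain and 80% in intestine. In brain the median of the 10 was -0.26 and that of all probe sets -0.14, and in intestine they were -0.60 and -0.24.

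**Figure D4:**
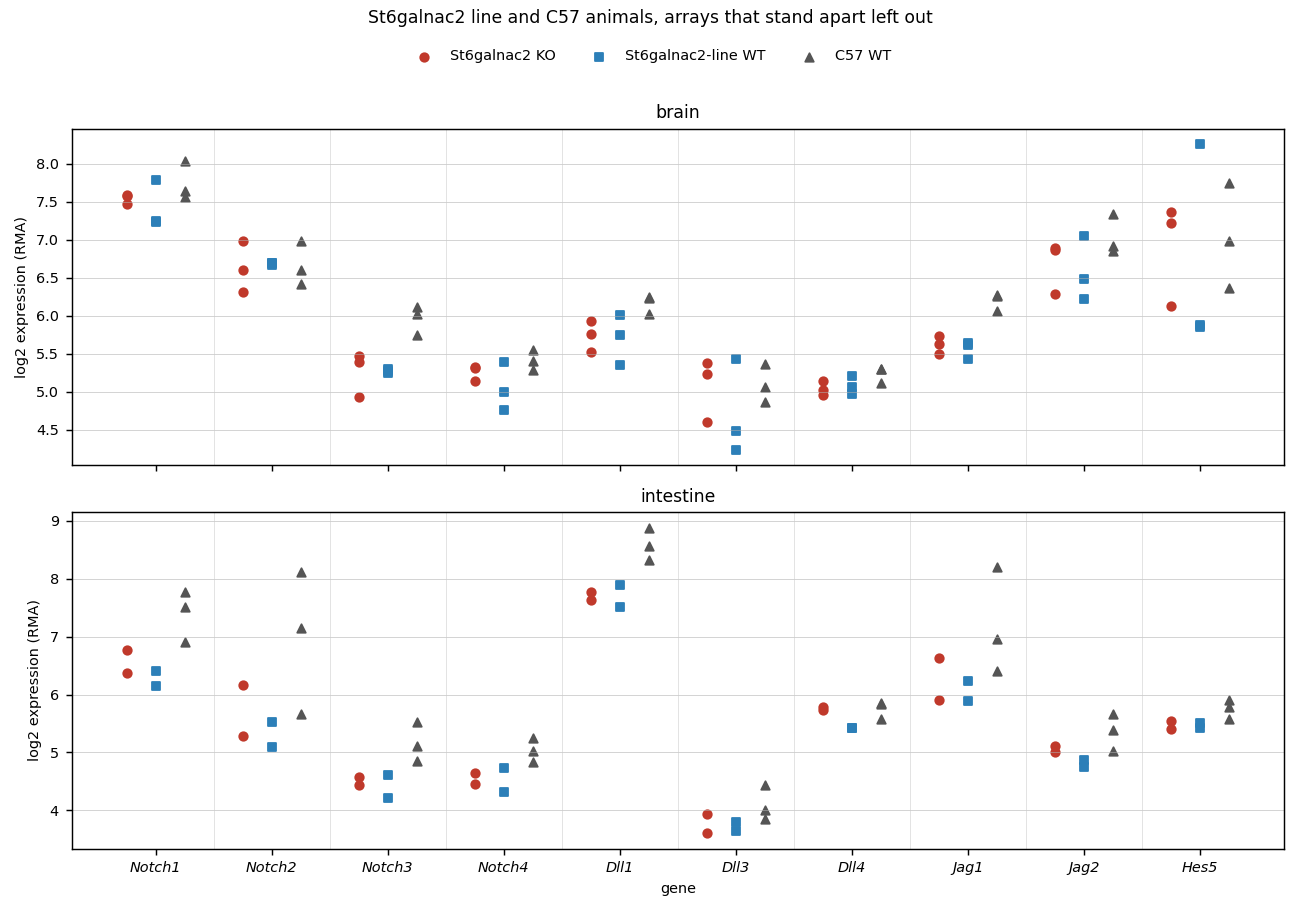
Log2 expression (RMA) of the 10 genes in brain (upper panel) and intestine (lower panel) of St6galnac2 KO mice, WT mice of that line and C57 mice, without the arrays that stand apart. Dll1 in intestine lies between 7.51 and 7.89 in the line and between 8.33 and 8.88 in C57 mice.

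In brain 2 of the 10 genes were lower in the line, where 8.43% of all probe sets were. Notch3 was 4.93, 5.39 and 5.48 in KO mice and 5.30, 5.24 and 5.27 in WT mice of the line, against 6.12, 6.03 and 5.75 in C57 mice. Jag1 was 5.74, 5.50 and 5.63 in KO mice and 5.43, 5.62 and 5.64 in WT mice, against 6.06, 6.27 and 6.26 in C57 mice. For both genes every mouse of the line lay below every C57 mouse. The differences were -0.70 ± 0.13 and -0.60 ± 0.09 (limma, adjusted p 0.0214 and 0.0112). With KO mice alone as the line, neither was called (adjusted p 0.121 and 0.066). Leaving out C57 mouse GDWTF1 lost both calls, and leaving out 9362, GDWTF2 or GDWTM3 lost that of Notch3. The mean of 3 mural cell markers lay between 6.33 and 6.71 in KO mice and between 6.32 and 6.57 in WT mice of the line, against 6.58 to 6.88 in C57 mice, and its part in Notch3 was not tested.

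In intestine Dll1 was the 1 gene called, lower in the line as were 5.86% of all probe sets. It was 7.78 and 7.64 in KO mice and 7.51 and 7.89 in WT mice, against 8.88, 8.58 and 8.33 in C57 mice, without overlap. The difference was -0.89 ± 0.18 (limma, adjusted p 0.0394). The call was lost with each array centred on its median (-0.59, adjusted p 0.0666) and without any 1 mouse other than C57 mouse GDWTF1. Without GDWTF1, Notch1 (-1.22), Notch2 (-2.12) and Notch3 (-0.86) were called beside Dll1. Of the 15 other pathway genes, Mfng was called in intestine, at -0.72 ± 0.15 (adjusted p 0.0402), and none in brain. The mean of 6 connective tissue markers lay between 7.24 and 7.74 in KO mice and between 7.33 and 7.43 in WT mice of the line, against 7.71 to 8.08 in C57 mice. The mean of 6 B cell and follicle markers was 5.61 to 5.65 in KO mice and 5.42 to 5.65 in WT mice of the line, and every C57 mouse lay above these, up to 6.41. Endothelial markers (5 genes) were also apart, at 5.25 to 5.57 in KO mice and 5.46 to 5.48 in WT mice, against 5.81 to 6.15 in C57 mice. The part of these lists in Dll1 was not tested. The intestine of the C57 mice is labelled small intestine and that of the line intestine, and whether the sampled segments were the same is not given in the sources used here.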

How the data were processed

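Expression was measured in 60 mouse tissue samples on a custom array. What the authors deposited is 1 log2 value per probe set and array, summarised by RMA per the submitters' processing notes. Its version, and whether all arrays were normalized together, are not given in the sources used here. Values were used as deposited, with no missing value. Of 1246 probe sets, 963 matched a symbol through the RefSeq transcript in their name (GRCm38.p6 gene table), 283 did not, and all were tested. Arrays of 1 mouse and tissue were averaged. Tests used limma 3.58.1 (lmFit, eBayes, duplicateCorrelation) in R 4.3.3 with Benjamini-Hochberg adjustment over all probe sets, and pandas 2.3.3 and matplotlib 3.10.9 in Python 3.11.15. The fitting code was tested on simulated data. The sex of 1 intestine sample, whose fields differ, was taken from its title. An array was set apart where its correlation with its labelled tissue was under 0.3.

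The 10 genes and all lists were chosen with earlier results of these data known. All 10 genes were described. Singled out were those called or, where a knockout comparison other than an F test called none, the 3 with the smallest p. Of other pathway genes, called ones in genotype comparisons and called modifying enzymes in tissue comparisons were singled out. Other called pathway genes were added after their values were seen. The labels give mouse numbers, so several tissues come from the same mouse: the mouse was a random block in the fits that averaged or compared knockout differences over tissues, with an estimated correlation of -0.11 in the St6galnac2 line and 0.07 in the DKO line. Tissue comparisons held KO and DKO effects as covariates. That the mice are separate animals is given by their numbers. Alternatives were centring, quantile normalization, filters, other samples and leaving out each mouse.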

Additional observations from a re-analysis of the deposited data

Results flagged for a closer look

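In 40 checks of a gene in a group of 4 or 5 mice, 3 values lay far from the rest of their group, and chance alone flags about 1 in 20 such groups. Dll1 in DKO mammary gland was 7.34 in female N5891, while the next mouse had 6.17. Dll3 in DKO thymus was 4.10 in male N5895, with the next mouse at 3.80, both near the low end of the array's values. Jag1 in WT kidney of the DKO line was 7.36 in N9686, the only female of that group, and 7.01 in the next mouse. Kidney Jag1 was also higher in the 2 DKO females, at 7.50 and 7.61, than in the 3 DKO males, at 6.68 to 6.88. A difference between the sexes was not tested.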

How the results depend on the processing

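Settings were compared for the genes called in a comparison or, with none called, the 3 with the smallest p. Of 1072 such values, 990 kept their direction and their side of the threshold. Leaving out 1 mouse gave -0.322 to 1.107 for Jag1 and -0.247 to 1.195 for Dll1 in KO intestine, negative without 9361. It gave -0.034 to 0.116 for the KO mean of Notch4, negative without 9099, and -0.003 to 0.162 for Dll1 in DKO kidney, negative without N9686. Without the arrays that stand apart, DKO thymus Jag1 was -0.018. Over all 10 genes, 48 of 120 differences between genotypes or lines took both signs when 1 mouse was left out, up to -0.533 to 0.94 for Dll1 in DKO mammary gland, and none of these was called. The genes called among the 10 changed as follows. DKO thymus went to 2 with all groups in 1 fit (Hes5 and Dll4) and 0 to 3 leaving out 1 mouse, and DKO testes to 0 to 1. The DKO mean went to 0 without arrays that stand apart, centred or quantile-normalized, and 0 to 3 leaving out 1 mouse, and the F test to 0 to 2. Each upper value came without N9700. The line in brain went to 0 with arrays as labelled, 0 with KO mice only and 1 after quantile normalization, and 0 to 2 leaving out 1 mouse. The line in intestine went to 0 under these and with centring, and 0 to 4. Brain went to 1 with all arrays as labelled and after quantile normalization, and 1 to 3 leaving out 1 mouse (1 without 9361). With no size minimum brain had 6, intestine 8, lymph node 6, thyroid 6, thymus 5, mammary gland 6 and kidney 6. Against the other 3 tissues of the line thymus had 1, mammary gland 2 and kidney 2, and with WT mice only mammary gland 2. Without the replicate block the DKO mean of Hes5 was -0.24 and still called, 81 probe sets were called in place of 34 for the mean and 10 in place of 36 for its F test. The block changed no other call among the 10 genes. Over all probe sets, counts with no size minimum were 974 against 366 in brain, 900 against 314 in intestine, 716 against 223 in lymph node, 681 against 150 in thyroid, 564 against 152 in thymus, 896 against 308 in testes, 584 against 145 in mammary gland and 750 against 202 in kidney. With all arrays as labelled they were 207 in intestine and 94 in thymus, with WT mice only 100 in thymus, and against the other 3 tissues of the line 228 in thyroid. Over the settings, the DKO thymus count went between 0 and 441 against 0, testes 0 to 213 against 3, the DKO mean 1 to 412 against 34, its F test 0 to 423 against 36, mammary gland 0 to 32 against 0, kidney 0 to 2 against 1, the KO comparisons 0 to 3 against at most 1, the line 2 to 126 against 126 in brain and 0 to 208 against 88 in intestine.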
